A study of Homo sapiens with 24 samples.

Results

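The levels of 10 genes of triglyceride synthesis and lipid droplets were followed in SKBR3 cells driven into therapy-induced senescence (TIS). They were chosen by name, as the rows of the deposited read-count table whose gene symbol is DGAT1, DGAT2, GPAM, AGPAT2, LPIN1, PLIN2, PLIN3, PNPLA2, LIPE or MGLL, and 10 of the 10 symbols had 1 row each among the 14493 genes of that table. SKBR3 (SKBr3 in the labels) is an established HER2-positive breast cancer cell line. RNA-seq was available for 24 libraries in 8 groups of 3 replicates.

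Untreated cells were collected on day 0 (proliferative cells) and on day 7. The other 6 groups were treated cells, refed on day 3 and collected on day 7. They had received ND-646 at 250 nmol/L, an inhibitor of acetyl-CoA carboxylase (ACC), TVB-3166 at 250 nmol/L, an inhibitor of fatty acid synthase (FASN), bleomycin at 10 μmol/L, which breaks DNA, alisertib at 500 nmol/L, an Aurora A kinase inhibitor, doxorubicin at 10 nmol/L, a topoisomerase II poison, or palbociclib (Palboclib in the labels) at 1 μmol/L, a CDK4/6 inhibitor. ND-646 and TVB-3166 both block fatty acid synthesis, and the state they bring about is called FASTIS. All 8 groups were the same line with no genetic change stated, so the results describe 1 tumour line. The labels name refeeding for the treated groups only, so an effect of it cannot be told apart from that of a drug. Nothing in the labels says that replicates came from separate cultures, and the p-values measure the spread between these libraries, which may be technical.

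Triglyceride is built in the endoplasmic reticulum by adding fatty acids to glycerol-3-phosphate step by step, removing the phosphate, and adding the last fatty acid. It is stored in lipid droplets, whose surface carries perilipins, and it is broken down again by lipases that release 1 fatty acid at a time. Cells that make much fatty acid themselves, as HER2-positive breast cancer cells do, use this store as a buffer between synthesis, membranes and oxidation.

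Total counts per library ranged from 29405121 to 44316330. One ND-646 library (replicate 1) and one day-0 library (replicate 1) stood apart from their replicates, with chi-square values per degree of freedom of 146 and 159 for the first and 171 and 172 for the second, against 13.4 and 18.3 between the other 2 libraries of these groups. Calls on the 10 genes that change without one of them are given both ways. ERBB2, which encodes HER2, was at 5125 to 8828 CPM (counts scaled to the library total with the TMM factor of edgeR) in every library. CDH1, another epithelial marker, and 5 of 6 fat cell markers had no row in the table used here, and the remaining one, PLIN1, was at 0.190 to 0.917 CPM. Of the other luminal epithelial markers, KRT8 was at 1822 to 5864 CPM, KRT18 at 1319 to 2648, KRT19 at 871 to 3772 and EPCAM at 270 to 597 CPM. TFAP2B, a luminal marker, was low at 0.214 to 4.41 CPM. COL1A1, the 1 fibroblast marker with a row, was at 6.46 to 15.2 CPM, and CD68, the 1 blood cell marker with a row, was at 3.68 to 7.32 CPM in untreated cells at 42.0 to 55.0 CPM in ND-646, 34.3 to 56.4 CPM in bleomycin and 25.6 to 30.3 CPM in TVB-3166 TIS cells, and at 4.78 to 12.9 CPM in the other 3 TIS groups. The part of CD68 in the results was not tested. In bulk RNA, fewer cells with a transcript and less of it per cell cannot be told apart.

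Day-0 cells had all 10 genes. Per kilobase of the canonical transcript, a scale on which genes can be compared, the order in day-0 cells was PNPLA2 at 51.1 ± 3.94 CPM per kilobase (SD, n = 3), MGLL at 34.0 ± 2.93, AGPAT2 at 23.6 ± 2.13, PLIN3 at 22.3 ± 2.83 and DGAT1 at 20.5 ± 1.51. LPIN1 followed at 6.64 ± 1.67, GPAM at 5.42 ± 0.672, PLIN2 at 4.74 ± 0.243, DGAT2 at 2.26 ± 0.832 and LIPE at 1.45 ± 0.0915. The lipases PNPLA2 and MGLL therefore stood highest and the lipase LIPE lowest, and PLIN3 stood above PLIN2. AGPAT2, PLIN3 and DGAT1 did not differ beyond their spread.

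The stretches upstream of the start site are shown for the 2 genes whose levels moved most, PLIN2 and LPIN1, and for PNPLA2, the gene that moved least across the groups. They are the 250 bases before the start, on the strand of the gene, from RefSeq on GRCh38.p14, a build other than the GRCh37 of the counts. The start is that of the RefSeq entry, and it need not be the outer end of the gene positions given with each gene, which come from another annotation. RefSeq entries of this kind were matched for 7 of the 10 genes. Capitals mark matches, on either strand, to the E-box CACGTG, the GC box GGGCGG, the CCAAT box CCAAT and the sterol element TCACNCCAC.
PLIN2, chr9:19127493-19127742, minus strand: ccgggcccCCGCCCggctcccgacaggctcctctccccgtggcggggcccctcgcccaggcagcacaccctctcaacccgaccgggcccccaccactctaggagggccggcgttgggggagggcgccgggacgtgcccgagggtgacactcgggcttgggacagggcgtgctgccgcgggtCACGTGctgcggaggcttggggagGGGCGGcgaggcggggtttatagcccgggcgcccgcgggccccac
LPIN1, chr2:11746382-11746631, plus strand: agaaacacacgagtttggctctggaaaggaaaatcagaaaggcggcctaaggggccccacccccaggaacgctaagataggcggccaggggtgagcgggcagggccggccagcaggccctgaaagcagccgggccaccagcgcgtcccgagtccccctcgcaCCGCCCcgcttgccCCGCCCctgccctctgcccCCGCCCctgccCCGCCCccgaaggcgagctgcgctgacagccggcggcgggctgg
PNPLA2, chr11:818664-818913, plus strand: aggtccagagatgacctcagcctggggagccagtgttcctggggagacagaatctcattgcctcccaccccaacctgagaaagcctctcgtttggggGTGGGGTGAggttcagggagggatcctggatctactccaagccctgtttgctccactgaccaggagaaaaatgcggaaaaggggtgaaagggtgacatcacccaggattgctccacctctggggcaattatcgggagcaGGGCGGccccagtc
PLIN2 had 1 E-box, 69 bases before the start, and 2 GC boxes, LPIN1 had 4 GC boxes, and PNPLA2 had 1 sterol element and 1 GC box. Among 35116 promoters of the same length, 6.34% held the E-box, 42.6% the GC box, 32% the CCAAT box and 0.883% the sterol element. A match of letters is a description and not a site.

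**Figure D1:**
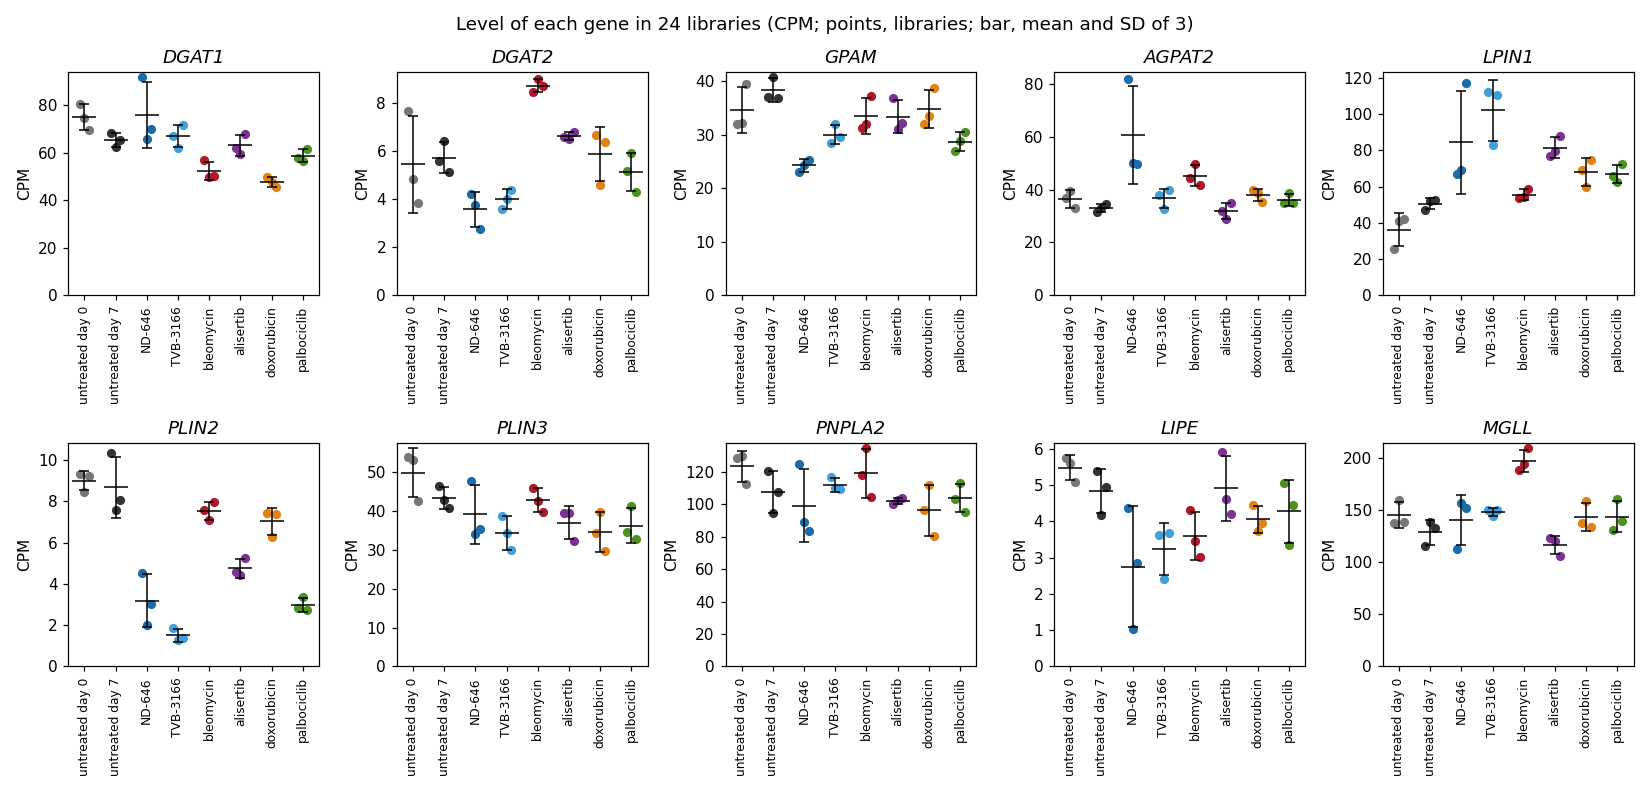
Level of each of the 10 genes in CPM (y axis, linear, from 0) in the 24 libraries, by group (x axis). Points are libraries and bars are the mean and SD of 3; PLIN2 sits at 1.30 to 1.87 CPM in TVB-3166 TIS cells and at 8.47 to 9.30 CPM in day-0 cells.

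PLIN2 was the gene of the 10 whose level spread most, over 2.54 log2 units between group means. Perilipin-2 coats lipid droplets in most cell types and is stable only when bound to them. PLIN2 lies on chromosome 9 from 19108373 to 19149288 (GRCh37, minus strand). Its level in day-0 cells was 9.30, 8.47 and 9.23 CPM, and in untreated day-7 cells 10.4, 7.59 and 8.07 CPM. In TVB-3166 TIS cells it was 1.87, 1.30 and 1.37 CPM, in palbociclib TIS cells 2.84, 3.37 and 2.75 CPM, in ND-646 TIS cells 4.54, 2.01 and 3.02 CPM, and in alisertib TIS cells 4.56, 4.44 and 5.27 CPM. In these 4 groups each library was below each of the 6 untreated libraries, and TVB-3166 was below each library of the other 7 groups. Bleomycin TIS cells had 7.56, 7.09 and 7.96 CPM and doxorubicin TIS cells 7.43, 6.27 and 7.41 CPM, all below the 3 day-0 libraries and overlapping the day-7 ones in bleomycin TIS cells. The lowest read count behind a value was 40, in TVB-3166 TIS cells.

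Against day-0 cells PLIN2 fell by 2.57 ± 0.20 on the log2 scale (SE) with TVB-3166, to 0.169 times the day-0 level (adjusted p = 2.33e-06, quasi-likelihood test of edgeR, Benjamini-Hochberg adjusted over all genes tested, as throughout). It fell by 1.59 ± 0.16 with palbociclib (adjusted p = 3.09e-05), by 1.52 ± 0.29 with ND-646 (adjusted p = 0.00362) and by 0.92 ± 0.15 with alisertib (adjusted p = 0.00130). The values for bleomycin, -0.25 ± 0.15 (adjusted p = 0.205), and doxorubicin, -0.34 ± 0.14 (adjusted p = 0.0688), did not pass the test. Against untreated day-7 cells the same 4 groups passed, with log2 fold-changes of -2.52, -1.53, -1.46 and -0.85 in the same order. These 8 calls held in each alternative fit, including without ND-646 replicate 1. Whether these 4 groups differ from bleomycin and doxorubicin TIS cells was not tested.

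LPIN1 moved the other way. Lipin-1 is a phosphatidate phosphatase that makes diacylglycerol, the precursor of triglyceride and of membrane phospholipids, and it also acts in the nucleus on gene expression. LPIN1 lies on chromosome 2 from 11817721 to 11967535 (GRCh37, plus strand). Its level was 25.7, 40.9 and 41.8 CPM in day-0 cells and 47.0, 52.0 and 52.8 CPM in untreated day-7 cells. TVB-3166 TIS cells had 113, 82.9 and 111 CPM, ND-646 TIS cells 66.9, 69.5 and 117 CPM, and alisertib TIS cells 77.2, 79.8 and 87.9 CPM. Doxorubicin TIS cells had 69.2, 60.0 and 75.0 CPM, palbociclib TIS cells 65.7, 62.8 and 72.7 CPM, and bleomycin TIS cells 53.8, 54.1 and 58.9 CPM. Each treated library was above each of the 6 untreated ones, with the bleomycin libraries closest to them, and the lowest library of the series was day-0 replicate 1.

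LPIN1 rose against day-0 cells in 6 of 6 TIS groups. The log2 fold-change was 1.50 ± 0.18 with TVB-3166 (adjusted p = 4.83e-05), 1.22 ± 0.27 with ND-646 (adjusted p = 0.00805), 1.18 ± 0.16 with alisertib (adjusted p = 0.000697), 0.93 ± 0.17 with doxorubicin (adjusted p = 0.00192), 0.89 ± 0.17 with palbociclib (adjusted p = 0.00116) and 0.62 ± 0.18 with bleomycin (adjusted p = 0.0154). The first 5 held in each alternative fit, and the bleomycin call was lost without bleomycin replicate 3 (adjusted p = 0.0507). Untreated day-7 cells themselves had a log2 fold-change of 0.50 ± 0.17 against day-0 cells (adjusted p = 0.126). Against untreated day-7 cells the fold-changes were smaller, at 1.02 with TVB-3166, 0.73 with ND-646, 0.71 with alisertib, 0.45 with doxorubicin and 0.41 with palbociclib, all past the test, and 0.15 with bleomycin (adjusted p = 0.212). In 1 fit of all 24 libraries the doxorubicin and palbociclib calls against day-7 cells were lost (adjusted p = 0.0753 and 0.0877). The ND-646 call against day-7 cells held in 8 of 13 alternatives, and was lost with library totals alone as scaling (adjusted p = 0.148).

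DGAT1 and DGAT2 are the 2 acyltransferases that add the last fatty acid to diacylglycerol, and they share the reaction but not their protein family. DGAT1 (chromosome 8, 145538247 to 145550573, minus strand, GRCh37) overlaps HSF1 on the other strand by 137 bases, and strand use in the counting is not stated. Its level was 80.5, 74.6 and 69.5 CPM in day-0 cells, 49.7, 47.5 and 45.4 CPM in doxorubicin TIS cells, 56.7, 49.6 and 50.3 CPM in bleomycin TIS cells and 57.7, 56.5 and 61.7 CPM in palbociclib TIS cells. These 3 groups lay below day-0 cells without overlap, and DGAT1 fell by 0.64 ± 0.09 (adjusted p = 0.000361), 0.51 ± 0.10 (adjusted p = 0.00289) and 0.35 ± 0.09 (adjusted p = 0.00794) on the log2 scale. Untreated day-7 cells (68.3, 62.5 and 65.2 CPM) and alisertib TIS cells (62.0, 59.3 and 67.8 CPM) also lay below day-0 cells without overlap. Their log2 fold-changes, -0.18 ± 0.09 (adjusted p = 0.250) and -0.25 ± 0.09 (adjusted p = 0.0568), did not pass. ND-646 TIS cells had 91.7, 65.7 and 69.8 CPM and TVB-3166 TIS cells 67.1, 62.1 and 71.6 CPM, with log2 fold-changes of 0.0019 ± 0.16 (adjusted p = 0.994) and -0.16 ± 0.10 (adjusted p = 0.195). The highest of the 24 libraries was ND-646 replicate 1. Against day-7 cells DGAT1 fell with doxorubicin (log2 fold-change -0.43) and bleomycin (-0.31) only, among the 6 TIS groups.

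DGAT2 (chromosome 11, 75470557 to 75512580, plus strand, GRCh37) had its highest group mean in bleomycin TIS cells, at 8.44, 8.97 and 8.69 CPM, above each of the other 21 libraries. Day-0 cells had 7.68, 4.83 and 3.82 CPM, so that replicate 1 alone stretched the group. ND-646 TIS cells had 4.20, 3.77 and 2.77 CPM and TVB-3166 TIS cells 3.58, 4.02 and 4.38 CPM, and both groups lay below the untreated day-7 cells with 5.60, 6.40 and 5.14 CPM. DGAT2 rose with bleomycin by 0.68 ± 0.25 against day-0 cells (adjusted p = 0.0442) and by 0.62 ± 0.16 against day-7 cells (adjusted p = 0.0105). It fell against day-7 cells by 0.69 ± 0.22 with ND-646 (adjusted p = 0.0442) and by 0.51 ± 0.16 with TVB-3166 (adjusted p = 0.0223). Against day-0 cells the values were -0.62 ± 0.31 (adjusted p = 0.143) and -0.45 ± 0.25 (adjusted p = 0.151). Without day-0 replicate 1 the rise with bleomycin was 1.01 (adjusted p = 0.00454), and alisertib TIS cells passed as well, at 0.63 (adjusted p = 0.0150) against 0.28 ± 0.23 (adjusted p = 0.368) with it. The bleomycin call against day-0 cells held in 7 of 13 alternatives, and the ND-646 and TVB-3166 calls against day-7 cells in 8 and 9 of 13.

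GPAM encodes the mitochondrial glycerol-3-phosphate acyltransferase, which takes the first step, and AGPAT2 the acyltransferase of the next step. GPAM (chromosome 10, 113909623 to 113975135, minus strand, GRCh37) was lowest in ND-646 TIS cells, at 23.1, 24.3 and 25.3 CPM, below each of the other 21 libraries. Day-0 cells had 32.0, 32.1 and 39.5 CPM and day-7 cells 37.1, 40.8 and 36.9 CPM. GPAM fell with ND-646 by 0.52 ± 0.15 against day-0 cells (adjusted p = 0.0252) and by 0.67 ± 0.13 against day-7 cells (adjusted p = 0.00465). It also fell against day-7 cells with TVB-3166 (-0.35 ± 0.09, adjusted p = 0.00700) and palbociclib (-0.41 ± 0.09, adjusted p = 0.00381). All 3 day-7 calls held in 13 of 13 alternatives, and the day-0 call with ND-646 in 10 of 14. With palbociclib against day-0 cells the value was -0.27 ± 0.12 (adjusted p = 0.0717), and -0.31 without day-0 replicate 1 (adjusted p = 0.0409).

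AGPAT2 (chromosome 9, 139567595 to 139581909, minus strand, GRCh37) was at 81.9, 50.1 and 49.6 CPM in ND-646 TIS cells, where replicate 1 was far above the others. TVB-3166 TIS cells had 38.0, 32.7 and 39.7 CPM and day-0 cells 36.9, 39.6 and 33.0 CPM. The ND-646 libraries were above each day-0 and TVB-3166 library. AGPAT2 rose with ND-646 by 0.71 ± 0.21 against day-0 cells (adjusted p = 0.0260) and by 0.86 ± 0.20 against day-7 cells (adjusted p = 0.0125), and with TVB-3166 the values were 0.02 ± 0.11 and 0.16 ± 0.10. Without ND-646 replicate 1 the rise against day-0 cells was 0.44 (adjusted p = 0.00914), and without day-0 replicate 1 it was 0.72 and did not pass (adjusted p = 0.0800). Bleomycin TIS cells had 44.3, 49.8 and 41.9 CPM, a rise of 0.47 ± 0.10 against day-7 cells (adjusted p = 0.00600), and 0.32 ± 0.12 against day-0 cells (adjusted p = 0.0506).

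PLIN3, the perilipin that moves between cytosol and droplets, fell against day-0 cells in 4 of 6 TIS groups. PLIN3 (chromosome 19, 4838353 to 4867706, minus strand, GRCh37) was at 53.9, 53.0 and 42.6 CPM in day-0 cells, and its lowest group was TVB-3166 at 38.8, 34.3 and 30.0 CPM. It fell against day-0 cells by 0.53 ± 0.13 with TVB-3166 (adjusted p = 0.00404), 0.51 ± 0.13 with doxorubicin (adjusted p = 0.00937), 0.46 ± 0.12 with palbociclib (adjusted p = 0.00888) and 0.43 ± 0.12 with alisertib (adjusted p = 0.0175). Against day-7 cells, which had 46.3, 42.8 and 40.7 CPM, the values that passed were -0.33 with TVB-3166 and -0.30 with doxorubicin. ND-646 TIS cells had 47.8, 34.2 and 35.3 CPM, with replicate 1 above the others, and log2 fold-changes of -0.36 ± 0.18 against day-0 cells (adjusted p = 0.136) and -0.16 ± 0.16 against day-7 cells (adjusted p = 0.473). Without that replicate both passed, at -0.53 (adjusted p = 0.00748) and -0.33 (adjusted p = 0.0164).

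The lipases act in the order PNPLA2, LIPE, MGLL. PNPLA2 (adipose triglyceride lipase, chromosome 11, 818914 to 825573, plus strand, GRCh37) takes the first fatty acid from triglyceride. Its group means spanned only 0.37 log2 units, from 96.2 ± 15.6 CPM (SD, n = 3) in doxorubicin TIS cells to 123 ± 9.52 CPM in day-0 cells. It fell against day-0 cells by 0.35 ± 0.12 with doxorubicin (adjusted p = 0.0373), 0.28 ± 0.09 with alisertib (adjusted p = 0.0274) and 0.25 ± 0.10 with palbociclib (adjusted p = 0.0455), and passed in none of the 6 comparisons with day-7 cells. The day-0 calls held in 8, 6 and 4 of 13 alternatives, and all 3 were lost without day-0 replicate 1 (adjusted p = 0.0563, 0.0529 and 0.0908). ND-646 TIS cells had 125, 88.8 and 83.6 CPM, with replicate 1 above the others, and log2 fold-changes of -0.33 ± 0.17 against day-0 cells (adjusted p = 0.165) and -0.13 ± 0.18 against day-7 cells (adjusted p = 0.605). Without that replicate both passed, at -0.52 (adjusted p = 0.00277) and -0.33 (adjusted p = 0.0232).

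LIPE (hormone-sensitive lipase, chromosome 19, 42905666 to 42931540, minus strand, GRCh37) lies wholly within the antisense gene LIPE-AS1, which has no row in the table used here. It was at 5.75, 5.59 and 5.09 CPM in day-0 cells, 3.61, 2.40 and 3.66 CPM in TVB-3166 TIS cells, 4.37, 1.04 and 2.84 CPM in ND-646 TIS cells and 4.30, 3.45 and 3.02 CPM in bleomycin TIS cells. These 3 groups lay below day-0 cells without overlap, and the ND-646 libraries were the most spread. Doxorubicin (4.45, 3.73 and 3.96 CPM) and palbociclib TIS cells (5.04, 3.33 and 4.46 CPM) also lay below day-0 cells without overlap. Their log2 fold-changes, -0.42 ± 0.16 (adjusted p = 0.0561) and -0.35 ± 0.20 (adjusted p = 0.152), did not pass. LIPE fell by 0.76 ± 0.21 with TVB-3166 (adjusted p = 0.00880) and by 0.61 ± 0.21 with bleomycin (adjusted p = 0.0357), and the ND-646 value was -1.02 ± 0.42 (adjusted p = 0.0868). The ND-646 value passed in 6 of 14 alternatives, among them DESeq2 (adjusted p = 0.0449) and the fit without ND-646 replicate 1 (-1.50, adjusted p = 0.00581). Against day-7 cells it was -0.84 ± 0.43 (adjusted p = 0.166), and -1.33 without that replicate (adjusted p = 0.00776). The TVB-3166 call against day-0 cells held in 13 of 13 alternatives and the bleomycin call in 7 of 13, with a loss without day-0 replicate 1 (adjusted p = 0.0816). Against day-7 cells LIPE fell with TVB-3166 as well, at -0.58 ± 0.20 (adjusted p = 0.0326). That call held in 9 of 13 alternatives and was lost in 1 fit of all 24 libraries (adjusted p = 0.120).

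MGLL (monoglyceride lipase, chromosome 3, 127407905 to 127771033, minus strand, GRCh37) takes the last fatty acid, and overlaps SEC61A1 on the other strand by 550 bases. The gene also overlaps KBTBD12 on the other strand, by 72440 bases, and KBTBD12 has no row in the table used here. It was highest in bleomycin TIS cells, at 189, 194 and 209 CPM, above each of the other 21 libraries, with 138, 159.9 and 138 CPM in day-0 cells. It rose with bleomycin by 0.44 ± 0.11 against day-0 cells (adjusted p = 0.00657) and by 0.63 ± 0.09 against day-7 cells (adjusted p = 0.000888), and both calls held in 13 of 13 alternatives. Alisertib TIS cells had 123, 120.2 and 106 CPM, a fall of 0.32 ± 0.10 against day-0 cells (adjusted p = 0.0237). In ND-646 and TVB-3166 TIS cells the log2 fold-changes of MGLL against day-0 cells were -0.06 and 0.03, with 95% intervals of -0.44 to 0.33 and -0.17 to 0.24. Against day-7 cells MGLL had 0.12 ± 0.16 with ND-646 (adjusted p = 0.611), and 0.25 without ND-646 replicate 1 (adjusted p = 0.0422).

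**Figure D2:**
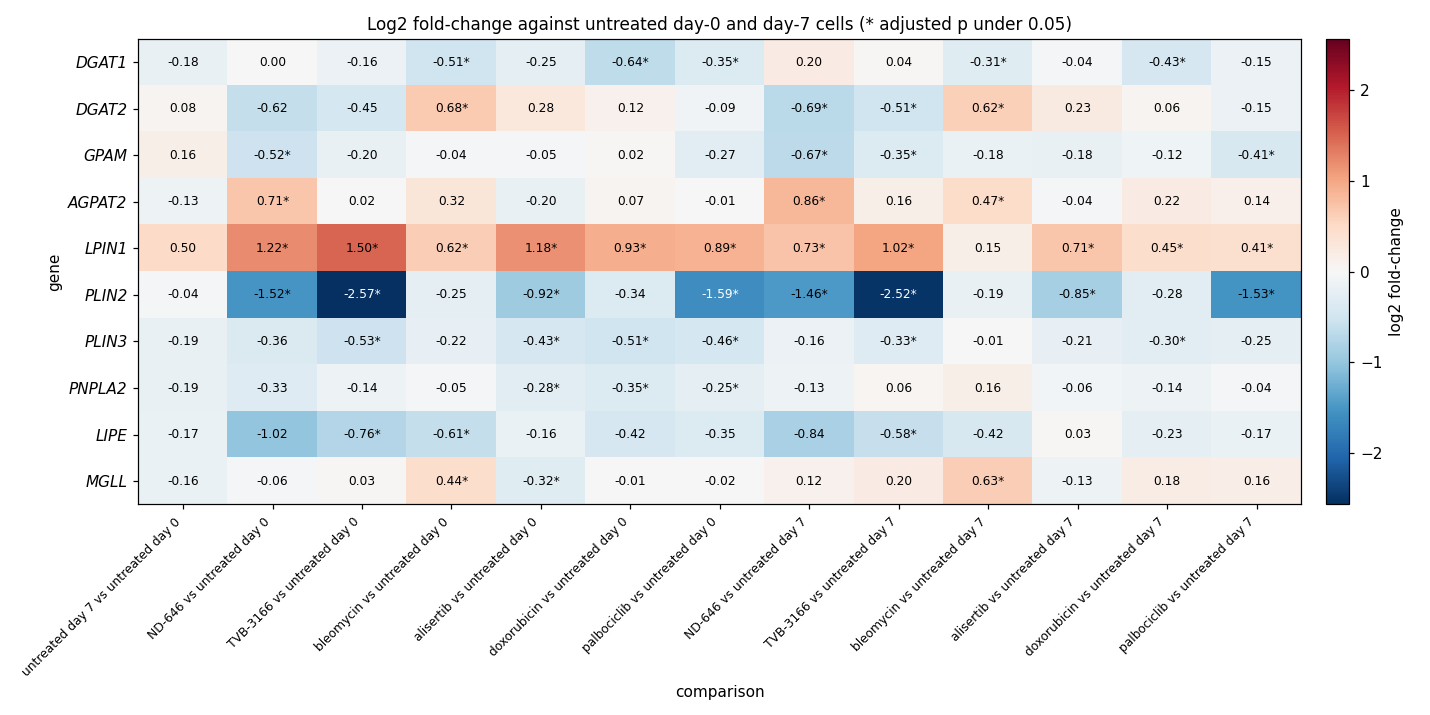
Log2 fold-change of each gene (rows) in each comparison with untreated day-0 and day-7 cells (columns), printed in each cell and coloured from blue (lower) to red (higher). A star marks an adjusted p under 0.05; LPIN1 has a star in 6 of 6 TIS groups against day 0, and PLIN2 has its lowest value, -2.57, in TVB-3166 TIS cells.

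The share of the 10 genes past the test was close to that of all genes in most comparisons. Against day-0 cells, 2 rose and 2 fell with ND-646, where 19.1% of all genes tested were higher and 18.8% lower. With TVB-3166 1 rose and 3 fell (27.4% and 27.7% of all genes), with bleomycin 3 rose and 2 fell (24.1% and 25.3%), and with alisertib 1 rose and 4 fell (17.7% and 19.6%). With doxorubicin 1 rose and 3 fell (23.7% and 24.8%), and with palbociclib 1 rose and 4 fell (26.0% and 27.2%). In each of the 6 groups, LPIN1 was among those that rose, and in TVB-3166, alisertib, doxorubicin and palbociclib TIS cells it was the only one. The median log2 fold-change of the 10 genes ran from -0.35 with ND-646 to -0.04 with bleomycin, against -0.0078 with palbociclib to 0.018 with ND-646 over all genes.

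Against untreated day-7 cells, 2 rose and 3 fell with ND-646 (17.2% and 17.1% of all genes), 1 rose and 5 fell with TVB-3166 (25.4% and 26.1%), 3 rose and 1 fell with bleomycin (22.4% and 23.2%), 1 rose and 1 fell with alisertib (9.55% and 9.49%), 1 rose and 2 fell with doxorubicin (21.9% and 21.5%), and 1 rose and 2 fell with palbociclib (22.0% and 22.9%). None of the 10 passed between untreated day-7 and day-0 cells in edgeR, where 0.389% of all genes were higher and 0.198% lower, and of the 10 genes LPIN1 alone, 1 gene, had an unadjusted p under 0.05. DESeq2 called 1, LPIN1. The comparisons with day 0 share the day-0 libraries, and those with day 7 share the day-7 libraries.

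ND-646 and TVB-3166 were then compared with each other. None of the 10 genes passed in edgeR, where 0.520% of all genes tested were higher and 0.198% lower with TVB-3166, and 3 had an unadjusted p under 0.05. These were PLIN2, with a log2 difference of -1.06 (95% interval -1.84 to -0.27, adjusted p = 0.213), AGPAT2, with -0.71 (-1.19 to -0.22, adjusted p = 0.186), and GPAM, with 0.32 (0.04 to 0.59, adjusted p = 0.272). DESeq2 called 1 of the 10, AGPAT2 at -0.72 (adjusted p = 0.0480). Without ND-646 replicate 1, 2 genes passed, AGPAT2 at -0.43 and PNPLA2 at 0.38. The shares of all genes past the test in DESeq2 and without that replicate are not given here. The interval for LPIN1, -0.27 to 0.84, and that for LIPE, -0.81 to 1.31, leave room for differences in either direction.

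The mean of the 2 FASTIS groups was set against the mean of the other 4 TIS groups in 1 fit of all 24 libraries. Of the 10 genes, 3 were higher and 4 lower in FASTIS cells, where 26.3% of all genes tested were higher and 24.7% lower. PLIN2 had the largest difference, -1.26 ± 0.14 on the log2 scale (adjusted p = 1.78e-07), followed by DGAT2 at -0.77 ± 0.14 (adjusted p = 6.18e-05). The difference was -0.49 ± 0.19 for LIPE (adjusted p = 0.0335) and -0.27 ± 0.07 for GPAM (adjusted p = 0.00199). LPIN1 was higher by 0.46 ± 0.11 (adjusted p = 0.00132), DGAT1 by 0.37 ± 0.06 (adjusted p = 5.20e-05) and AGPAT2 by 0.33 ± 0.09 (adjusted p = 0.00324). Without ND-646 replicate 1 the AGPAT2 difference was 0.19 (adjusted p = 0.0156). The calls of PLIN2, DGAT2, GPAM, DGAT1 and LPIN1 held in 26 of 26 alternatives, that of AGPAT2 in 25 and that of LIPE in 19. Differences of PLIN3 (-0.03, 95% interval -0.22 to 0.15), PNPLA2 (0.0035, -0.17 to 0.18) and MGLL (-0.03, -0.18 to 0.11) did not pass.

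Group by group, these differences were uneven. The PLIN2 mean of palbociclib TIS cells, 2.99 ± 0.332 CPM (SD, n = 3), was below that of ND-646 TIS cells, 3.19 ± 1.27 CPM, and the LPIN1 mean of alisertib TIS cells, 81.6 ± 5.58 CPM, was next to that of ND-646 TIS cells, 84.6 ± 28.4 CPM. These neighbours did not differ beyond their spread. Without ND-646 replicate 1 (4.54 CPM) the PLIN2 order turns, since the other 2 libraries had 2.01 and 3.02 CPM. For DGAT2, by contrast, 1 library of the other 4 groups (palbociclib, 4.31 CPM) lay below the highest FASTIS value, 4.38 CPM. The DGAT1 values of FASTIS cells, 62.1 to 91.7 CPM, lay above each bleomycin, doxorubicin and palbociclib library and overlapped alisertib TIS cells. AGPAT2 passed against both untreated groups in ND-646 TIS cells and against neither in TVB-3166 TIS cells, and the difference between these 2 groups did not pass in edgeR (adjusted p = 0.186), but did in 1 fit of all 24 libraries (adjusted p = 0.00375).

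**Figure D3:**
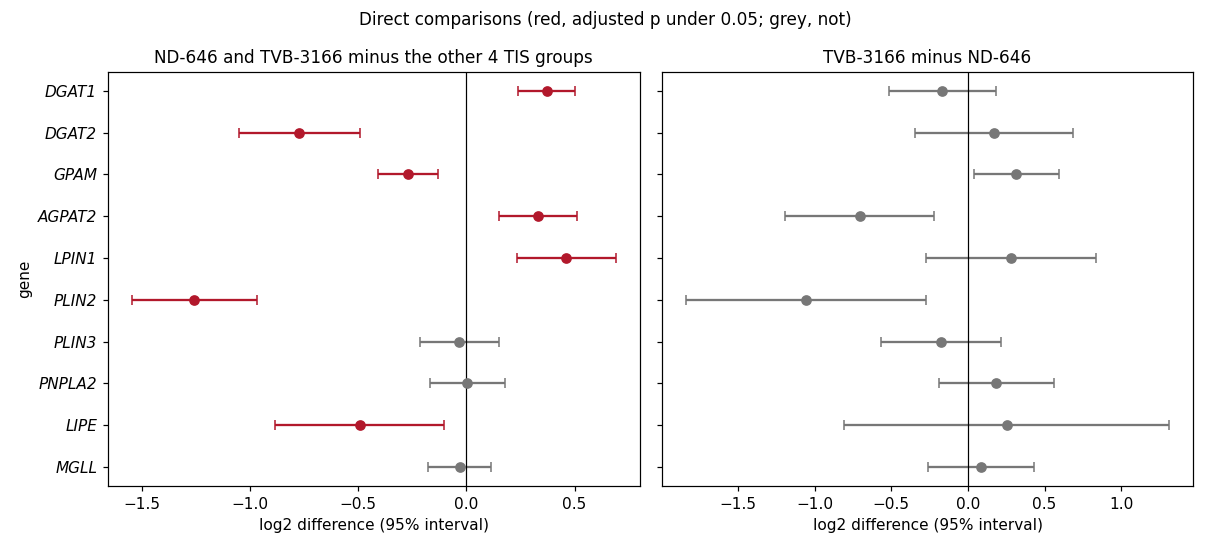
Log2 difference (x axis) of each gene (y axis), with its 95% interval, for the mean of ND-646 and TVB-3166 minus the mean of the other 4 TIS groups (left) and for TVB-3166 minus ND-646 (right). Red points have an adjusted p under 0.05 (7 of 10 on the left, none on the right).

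For each gene whose group means spanned at least 1 log2 unit, the 2 genes of 13404 with the most similar pattern over the 8 group means were found by the distance between centred log2 CPM. For LPIN1 they were ANO8 (distance 0.20) and ABCC2 (0.33), for LIPE PFAS (0.18) and GOT2 (0.24), for DGAT2 HSPB1 (0.38) and SYTL4 (0.42), and for PLIN2 NFE2L3 (0.76) and SNAI1 (0.84). This distance is not scaled to the span of a gene, which was 2.54 log2 units for PLIN2 and 1.52 for LPIN1. Distances of different genes can therefore not be compared.

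The neighbouring genes of the pathway were a list of 47, of which 34 had a row and all 34 were tested. Against day-0 cells 11 of 34 rose and 4 fell with ND-646 (19.1% and 18.8% of all genes tested), and 13 rose and 5 fell with TVB-3166 (27.4% and 27.7%). In untreated day-7 cells 3 of 34 were higher than in day-0 cells and none lower (0.389% and 0.198%), namely ACSL1, ACSL4 and PNPLA3. Within the synthesis genes, 8 of 16 rose and 2 fell with ND-646 and 7 rose and 1 fell with TVB-3166, within droplet coat and assembly genes 1 of 12 rose and 2 fell, and 3 rose and 3 fell, and within lipolysis genes 2 of 6 rose and none fell, and 3 rose and 1 fell. The median of the 34 was 0.24 with ND-646 and 0.21 with TVB-3166. Without the libraries that stand apart the counts were 16 and 7 with ND-646 and 14 and 4 with TVB-3166. The shares of all genes in those fits are not given here. With library totals alone as scaling the counts were 8 and 6, and 13 and 4. The share of higher genes among all calls then went from 50.5% to 39% with ND-646 and from 49.7% to 50.2% with TVB-3166. In FASTIS cells against the other 4 TIS groups 12 were higher and 7 lower (26.3% and 24.7% of all genes). With library totals alone 6 were higher and 11 lower, and the share of higher genes among all calls went from 51.6% to 29.8%. These changes in the counts are therefore not particular to the pathway genes.

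Among these genes, 2 acyl-CoA synthetases, which activate fatty acids, rose against day-0 cells in 6 of 6 TIS groups. ACSL1 went from 218 ± 7.54 CPM (SD, n = 3) in day-0 cells to 703 ± 97.9 CPM with ND-646 and 778 ± 149 CPM with TVB-3166, a log2 fold-change of 1.67 ± 0.16 (adjusted p = 0.000112) and 1.84 ± 0.14 (adjusted p = 1.78e-06), and it was at 428 ± 99.1 CPM in untreated day-7 cells. ACSL5 went from 19.2 ± 3.42 CPM to 118 ± 14.0 CPM with ND-646, 2.61 ± 0.18 on the log2 scale (adjusted p = 2.49e-05), and to 79.0 ± 5.06 CPM with TVB-3166. It was at 45.7 ± 18.6 CPM in untreated day-7 cells, against which the log2 fold-changes were 1.36 ± 0.26 (adjusted p = 0.00528) and 0.80 ± 0.21 (adjusted p = 0.00826).

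Of the enzymes that feed or extend the glycerol backbone, GPAT3, an acyltransferase of the endoplasmic reticulum, rose with ND-646 by 1.50 ± 0.32 (adjusted p = 0.00686) and had a value of 0.55 ± 0.28 with TVB-3166 (adjusted p = 0.110). Day-0 cells ranged from 3.87 to 8.49 CPM, and without day-0 replicate 1 GPAT3 passed with TVB-3166 as well, at 1.03 (adjusted p = 0.000357). AGPAT4 rose by 1.66 ± 0.30 and 1.49 ± 0.27. GPD1, which makes glycerol-3-phosphate, fell by 1.46 ± 0.25 with ND-646 (adjusted p = 0.00236), with a value of -0.24 ± 0.19 with TVB-3166 (adjusted p = 0.307). LPIN3, a relative of LPIN1, rose with TVB-3166 by 1.27 ± 0.19 (adjusted p = 0.000183) and had 0.62 ± 0.31 with ND-646 (adjusted p = 0.150). Without the libraries that stand apart it passed with ND-646 too, at 0.87 (adjusted p = 0.000809).

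On the droplet, HILPDA, a droplet protein that inhibits the lipase PNPLA2, went from 57.2 to 60.6 CPM in day-0 libraries to 132 to 177 CPM with ND-646 and 123 to 152 CPM with TVB-3166, and rose against day-0 cells in 6 of 6 TIS groups. PLIN1, the perilipin of fat cells, was below 1 CPM in every library, and rose with TVB-3166 by 1.25 ± 0.37 (adjusted p = 0.0139). With ND-646 its value was 0.93 ± 0.42 (adjusted p = 0.111), and 1.31 without the libraries that stand apart (adjusted p = 0.0335). METTL7A, found on droplets, fell by 1.60 ± 0.16 with ND-646 (adjusted p = 0.000120) and by 0.56 ± 0.11 with TVB-3166 (adjusted p = 0.00142). It also fell with bleomycin, and rose with alisertib, doxorubicin and palbociclib.

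Of the hydrolases, CES1, a carboxylesterase, went from 0.411 ± 0.154 CPM in day-0 cells to 21.9 ± 5.27 CPM with ND-646, 6.88 ± 1.15 CPM with TVB-3166 and 21.5 ± 8.40 CPM with bleomycin. With doxorubicin CES1 was at 7.76 ± 0.868 CPM, with palbociclib at 3.88 ± 1.22 CPM and with alisertib at 1.33 ± 0.186 CPM. LIPA, the lysosomal acid lipase, rose by 1.00 ± 0.14 with ND-646 (adjusted p = 0.000811) and 0.99 ± 0.09 with TVB-3166 (adjusted p = 8.07e-06). In FASTIS cells against the other 4 TIS groups LIPA was higher by 0.69 ± 0.06 (adjusted p = 3.11e-09). These groups were uneven, with LIPA at 91.4 ± 7.59 CPM in palbociclib TIS cells and 56.4 ± 3.55 CPM in day-0 cells. It was at 62.4 ± 4.72 CPM in bleomycin, 64.6 ± 3.03 CPM in alisertib and 64.9 ± 2.94 CPM in doxorubicin TIS cells. PNPLA3, a relative of PNPLA2, rose by 1.49 ± 0.30 with TVB-3166 (adjusted p = 0.00154) and had 0.47 ± 0.47 with ND-646 (adjusted p = 0.462), and it was higher in untreated day-7 than in day-0 cells by 1.62 on the log2 scale. Its log2 difference between FASTIS cells and the other 4 TIS groups was -0.97 (adjusted p = 0.000318).

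**Figure D4:**
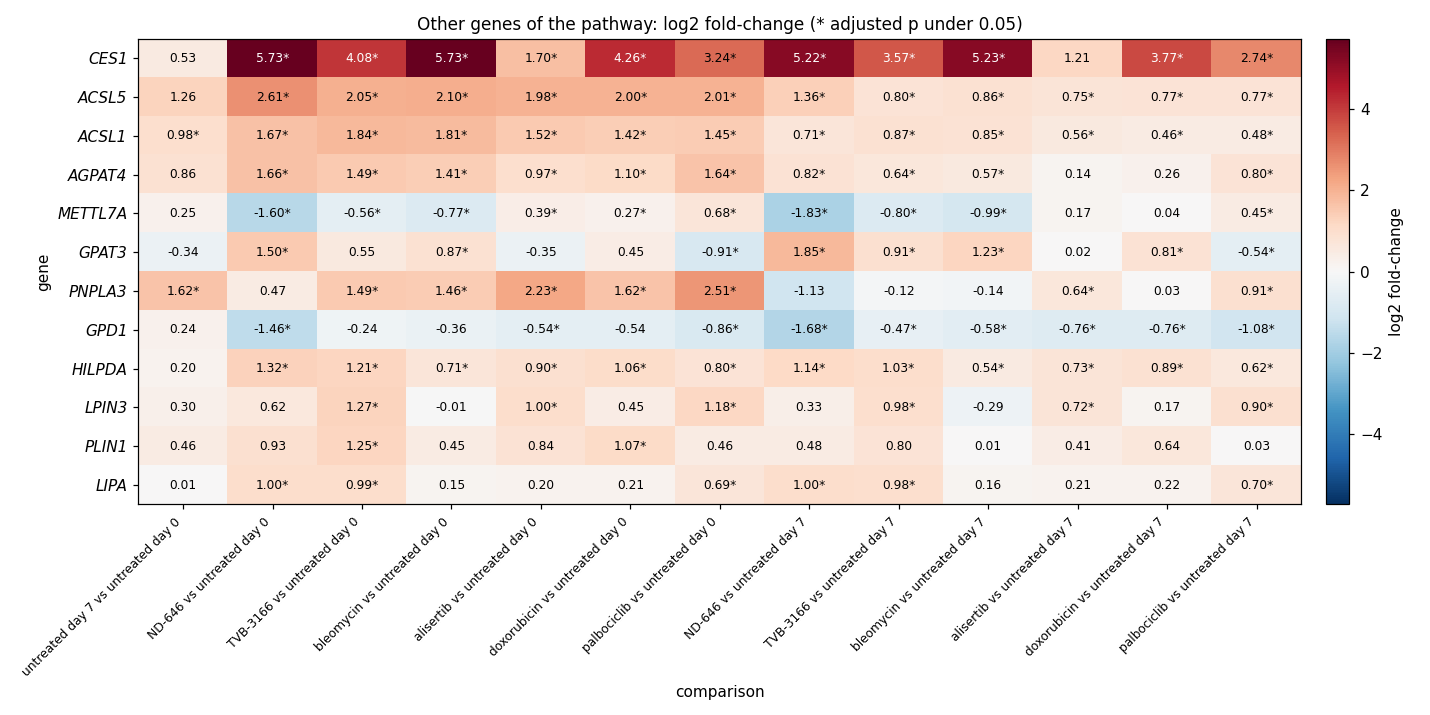
Log2 fold-change of the 12 other pathway genes that passed the rule for naming (rows) against untreated day-0 and day-7 cells (columns), with a star at an adjusted p under 0.05. CES1, ACSL1, ACSL5 and HILPDA have a star in all 6 TIS groups against day 0.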

How the data were processed

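Whole-number read counts per gene, not normalized, were deposited by the authors for 24 libraries of SKBR3 cells. Per the labels and the methods of the study, paired reads were aligned to GRCh37 with HISAT2, assembled with StringTie and compared with DESeq2. The labels name a stranded mRNA kit and the methods a stranded total RNA kit, and counting settings and strand use are not stated. The lowest count in the table is 1, so a gene without reads in 1 library has no row.

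Groups were taken from the labels. Each pairwise comparison was a 2-sided quasi-likelihood test (edgeR 4.0.16, glmQLFit with glmQLFTest, R 4.3.3) on the libraries of its own groups. Low genes were removed with filterByExpr, TMM factors were used, and there was no block. The FASTIS contrast used all 24 libraries. Calls are Benjamini-Hochberg adjusted p under 0.05 over all genes tested, and all 10 genes were tested in each of 15 comparisons. With 3 libraries against 3 an exact permutation test cannot go below 0.1, and none was used. Log2 CPM used a prior count of 2. The fits were tested on simulated data with 200 changed genes. For ND-646 against day 0 edgeR recovered 139 of them with 10 false calls, and for the FASTIS contrast 193 with 8.

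Same-numbered libraries were taken to be paired where all 3 correlations of their deviations from group means were over 0.1. Alternatives were DESeq2 1.42.0, RLE size factors, library totals alone, testing without a filter, a floor of 10 counts in each library, a single fit of all 24 libraries (for the contrast, of the 18 TIS libraries), the replicate number as a block, the fold-change threshold of 2 with a raw p under 0.05, and each library left out.

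All 10 genes were named. Other pathway genes were named if they had an adjusted p under 0.05 and a log2 fold-change of at least 1 in size against day 0 with ND-646 or TVB-3166, at most 12. Similar genes were the 2 nearest for genes whose group means spanned at least 1 log2 unit. The 10 genes, the pathway list and the marker lists were chosen with earlier results of these data known. Positions are GRCh37 from the gene annotation, and lengths are those of its canonical transcript.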

Additional observations from a re-analysis of the deposited data

Results flagged for a closer look

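For 7 of the 10 genes a test of the difference itself separated the mean of both FASTIS groups, ND-646 and TVB-3166, from the mean of the bleomycin, alisertib, doxorubicin and palbociclib TIS groups, in 1 edgeR fit of 24 libraries, where 26.3% of all genes tested were higher and 24.7% lower. The log2 differences were -1.26 for PLIN2, -0.77 for DGAT2, -0.49 for LIPE, -0.27 for GPAM, 0.33 for AGPAT2, 0.37 for DGAT1 and 0.46 for LPIN1. The PLIN2 level of palbociclib TIS cells lay within the range of ND-646 TIS cells. The GPAM mean of palbociclib TIS cells, 28.7 CPM, was below that of TVB-3166 TIS cells, 30.0 CPM. For AGPAT2 the mean of bleomycin TIS cells, 45.3 CPM, was above that of TVB-3166 TIS cells, 36.8 CPM. LIPE in bleomycin TIS cells, 3.02 to 4.30 CPM, overlapped both FASTIS groups. Groups of 3 libraries are too small for a test for single outlying samples.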

How the results depend on the processing

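The fall of PLIN2 (ND-646, TVB-3166, alisertib and palbociclib against both references), the rise of LPIN1 against day-0 cells (all TIS groups but bleomycin), and the PLIN2, LPIN1, DGAT1, DGAT2 and GPAM differences between FASTIS and the other 4 TIS groups kept direction and call in each alternative fit. Depth is no limit for most of these genes, but PLIN2, DGAT2 and LIPE were at few CPM. No alternative turned the sign of a called value, and the cause of each change given here was not tested unless fewer libraries or genes made it.

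The 2-fold threshold with a raw p under 0.05 gave 2 genes for TVB-3166 against day 0 and against day 7, 1 for alisertib and palbociclib against day 0, 1 for ND-646 and palbociclib against day 7, 1 for TVB-3166 against ND-646 and for FASTIS against the other TIS groups, and 0 for bleomycin and doxorubicin against both and for alisertib against day 7. For ND-646 against day 0 that threshold gave PLIN2 (-1.52), LPIN1 (1.22) and LIPE (-1.02). With library totals alone as scaling, 7 genes passed for ND-646 against day 0 (2 higher and 5 lower, against 2 and 2), 2 for alisertib (1 and 1) and 3 for palbociclib (1 and 2) against day 0. A fit of all 24 libraries gave 7 for ND-646 against day 0, 3 for TVB-3166 and 1 for doxorubicin against day 7, and 2 for TVB-3166 against ND-646, AGPAT2 and PLIN2. DESeq2 gave 1 for day 7 against day 0 (LPIN1) and 1 for TVB-3166 against ND-646 (AGPAT2). Without both libraries that stand apart, a choice made after seeing the data, ND-646 against day 0 gave 7.

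Library totals alone moved the median log2 fold-change of all genes by -0.11 (ND-646), 0.14 (alisertib), 0.11 (doxorubicin) and 0.13 (palbociclib) against day 0, by -0.22 (ND-646) and -0.13 (bleomycin) against day 7, by 0.13 for TVB-3166 against ND-646 and by -0.14 for FASTIS against the other TIS groups. The share of higher genes among all calls went from 50.5% to 39%, 47.5% to 69.6%, 48.9% to 61% and 48.9% to 61.9% in the first 4 of these, from 50.2% to 29.4% and 49.1% to 34.4% in the next 2, and from 72.4% to 89.7% and 51.6% to 29.8% in the last 2. It went from 66.2% to 87.5% for day 7 against day 0 and from 49.3% to 38.5% for TVB-3166 against day 7. DESeq2 gave 48.8% for day 7 against day 0 and 59.2% for TVB-3166 against ND-646.

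The replicate number paired the libraries only for bleomycin and alisertib against day 7 and TVB-3166 against ND-646, where the replicate block changed no call among the 10 genes. Elsewhere the lowest of the 3 correlations ran from -0.0978 (ND-646 against day 0) to 0.0975 (doxorubicin against day 7), and a weaker pairing was not tested. There the block gave 1 gene for day 7 against day 0 (LPIN1, 0.53, adjusted p = 0.0234) and added LIPE with ND-646 (-1.17, adjusted p = 0.0420), AGPAT2 with bleomycin, DGAT1 with alisertib and GPAM with palbociclib against day 0, and MGLL with TVB-3166 and PLIN3 with palbociclib against day 7.

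Leaving out 1 library at a time, the number of the 10 genes past the test against day 0 ran from 2 to 7 for ND-646, from 2 to 4 for bleomycin and from 2 to 6 for alisertib. Against day 7 it ran from 2 to 9 for ND-646, from 3 to 6 for TVB-3166 and from 2 to 4 for bleomycin. For TVB-3166 against ND-646 it ran from 0 to 2. The highest counts for ND-646, and the 2 for TVB-3166 against ND-646, came without ND-646 replicate 1. The lowest for ND-646 came without day-0 replicate 2 or 3 and without day-7 replicate 1 or 2. The share of all genes past the test in each of these fits is not given here. The counts therefore do not set the 10 genes apart from all genes.

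Calls against day 0 lost in this way were GPAM with ND-646 (without ND-646 or day-0 replicate 2 or 3, adjusted p up to 0.105), AGPAT2 with ND-646 (without any 1 day-0 library, up to 0.101), DGAT2 with bleomycin (without any bleomycin library or day-0 replicate 2 or 3, up to 0.141), LIPE with bleomycin (without bleomycin replicate 2 or 3 or any day-0 library, up to 0.123), and PLIN3, MGLL and PNPLA2 with alisertib (without alisertib replicate 3 or day-0 replicate 2 in each, up to 0.0870, 0.113 and 0.0991). MGLL was also lost without alisertib replicate 2, and PNPLA2 without alisertib replicate 1 or 2 or day-0 replicate 1. PNPLA2 was further lost with doxorubicin and palbociclib (without treated replicate 1 or 3 or day-0 replicate 1 or 2, up to 0.147 and 0.167). Against day 7 the lost calls were DGAT2 (without any but ND-646 replicate 1, up to 0.136), LPIN1 (without ND-646 replicate 3 or any day-7 library, up to 0.126) and AGPAT2 (without day-7 replicate 1 or 2, up to 0.0600) with ND-646. With TVB-3166 they were DGAT2 (without TVB-3166 replicate 1 or 2 or day-7 replicate 2, up to 0.0700), PLIN3 (without TVB-3166 replicate 2 or 3 or day-7 replicate 1, up to 0.0967) and LIPE (without TVB-3166 replicate 2 or day-7 replicate 1 or 3, up to 0.129). With bleomycin they were DGAT1 (without bleomycin replicate 2 or 3 or day-7 replicate 1 or 3, up to 0.0749) and DGAT2 (without day-7 replicate 3, 0.0577), and with doxorubicin PLIN3 (without any but doxorubicin replicate 2, up to 0.150). For FASTIS against the other TIS groups LIPE was lost without replicate 1 of any of the other 4 TIS groups or replicate 2 of ND-646 or TVB-3166 (up to 0.109).

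The values whose sign turned had passed the test under neither setting. With library totals alone they were, against day 0, DGAT1 with ND-646 (-0.12), GPAM with alisertib (0.076), MGLL with doxorubicin (0.099), DGAT2 (0.058), AGPAT2 (0.12) and MGLL (0.11) with palbociclib and PLIN2 in day-7 cells (0.053), against day 7 DGAT1 (-0.033) and MGLL (-0.088) with ND-646 and DGAT1 (-0.054) and PNPLA2 (-0.033) with TVB-3166, and PNPLA2 in FASTIS against the other TIS groups (-0.15). DGAT1 with ND-646 against day 0 was -0.012 with no filter, -0.0086 with the replicate block and -0.10 without both libraries that stand apart, where MGLL was 0.038. PNPLA2 in FASTIS against the other TIS groups was -0.0011 with no filter, -0.0034 with at least 10 counts in every library and -0.10 without both libraries, where MGLL was 0.033. With at least 10 counts in every library MGLL was 0.017 with doxorubicin and AGPAT2 0.0028 with palbociclib against day 0, and PLIN3 was 0.0027 with bleomycin against day 7, where DESeq2 gave 0.00057 and RLE size factors 0.00083.

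Leaving out 1 library at a time, log2 fold-changes whose sign turned against day 0 ranged from -0.15 to 0.088 (DGAT1) and -0.15 to 0.082 (MGLL) with ND-646, from -0.050 to 0.094 (AGPAT2) and -0.0065 to 0.10 (MGLL) with TVB-3166, from -0.12 to 0.072 (GPAM) and -0.15 to 0.043 (PNPLA2) with bleomycin, from -0.12 to 0.054 (GPAM) with alisertib, from -0.082 to 0.45 (DGAT2), -0.060 to 0.13 (GPAM), -0.0018 to 0.13 (AGPAT2) and -0.086 to 0.068 (MGLL) with doxorubicin, from -0.30 to 0.25 (DGAT2), -0.082 to 0.061 (AGPAT2) and -0.10 to 0.068 (MGLL) with palbociclib, and from -0.13 to 0.41 (DGAT2) and -0.20 to 0.042 (PLIN2) in day-7 cells. Against day 7 they ranged from -0.012 to 0.089 (DGAT1) and -0.028 to 0.15 (PNPLA2) with TVB-3166, from -0.079 to 0.050 (PLIN3) with bleomycin, from -0.092 to 0.0036 (DGAT1), -0.11 to 0.022 (AGPAT2), -0.16 to 0.019 (PNPLA2) and -0.12 to 0.13 (LIPE) with alisertib, from -0.036 to 0.21 (DGAT2) with doxorubicin and from -0.13 to 0.050 (PNPLA2) with palbociclib. For TVB-3166 against ND-646 they ranged from -0.15 to 0.73 (LIPE) and -0.053 to 0.17 (MGLL), and for FASTIS against the other TIS groups from -0.12 to 0.010 (PLIN3), -0.10 to 0.058 (PNPLA2) and -0.075 to 0.033 (MGLL).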
